A study of Homo sapiens with 10 samples.

Results

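The arms of human chromosome 11, without the imprinted 11p15 end, the centromere and the telomeric end of the long arm, were described across DNA methylation peak lists of HEK293T cells. HEK293T is an embryonic kidney cell line. The peaks were those on chromosome 11 with a midpoint between 5 and 50 Mb, or between 55.8 Mb and 1 Mb before the chromosome's end, in GRCh38. They numbered 7688 of the 284960 peaks that the 5 lists hold on chromosomes 1 to 22 and X. Methylation had been measured by MeDIP-seq, in which sheared DNA is captured with an antibody against methylated cytosine and sequenced. The cells were K rep KO, K non-rep KO, K-KD, EV and WT. The design text names the knockdown target as KCNQ1OT1_K, and EV, K, rep and non-rep are not spelled out there. Each of these conditions had 1 immunoprecipitated and 1 input library, and whether a line is a single clone is not stated. With 1 list per condition, no value has a replicate, no test across samples was possible and differences have no replicate check. Intervals are 95% intervals for counting error only, and neighbouring peaks are not independent, so they are too narrow.

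The arms were selected on the number of chromosome 11 peaks in K rep KO set beside K non-rep KO. Peak numbers of that pair are therefore a description and carry no interval in the text. Since both lists took part in the choice, the values of each beside other lists support nothing either. Close to the bounds the numbers were small. From 5 to 6 Mb there were 2 peaks in K rep KO, against 3 in K non-rep KO, and from 4 to 5 Mb 2 and 5. From 49 to 50 Mb both lists held 0 peaks and from 50 to 51 Mb both held 2, and the 2 Mb around the bound at 55.8 Mb held 0 in both. The last Mb inside the bound of the long arm held 7 peaks in K rep KO, against 12 in K non-rep KO, and the Mb beyond it 11 and 27. The whole first 5 Mb, left out of the arms, held 126 peaks in K rep KO, against 255 in K non-rep KO. The centromeric stretch left out held 288 and 273. A lower number in K rep KO was thus not particular to the arms, as the first 5 Mb had it too.

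Cytosine methylation in human cells lies mostly at CpG dinucleotides, and the antibody favours places where methylated CpG is dense. Gene bodies and repeats are widely methylated, while most CpG-rich promoters are kept free of it. KCNQ1OT1 is a long non-coding RNA made from the paternal chromosome within the 11p15 imprinted domain, and it silences neighbouring genes on the same chromosome; the arms described here lie outside that domain. They hold the olfactory receptor clusters, the PAX6 and WT1 region of the short arm and the gene-dense 11q12 and 11q13 bands.

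Promoters show where the peaks lie relative to CpG. The sequences that follow are RefSeq promoter windows of GRCh38.p14, from 250 bases before to 50 after a start of the gene. They are written 5′ to 3′ on the gene's strand with each CpG in capitals. A gene can have several such windows. FRMD8, of a FERM-domain protein that stabilises iRhom proteins, and PLAAT3, a phospholipase and acyltransferase, are shown because a peak covered all 300 bases of their windows in all 5 lists. FRMD8 lies at chr11:65386387-65386686 on the plus strand and holds 38 CpG, and PLAAT3 at chr11:63614384-63614683 on the minus strand with 33.
FRMD8: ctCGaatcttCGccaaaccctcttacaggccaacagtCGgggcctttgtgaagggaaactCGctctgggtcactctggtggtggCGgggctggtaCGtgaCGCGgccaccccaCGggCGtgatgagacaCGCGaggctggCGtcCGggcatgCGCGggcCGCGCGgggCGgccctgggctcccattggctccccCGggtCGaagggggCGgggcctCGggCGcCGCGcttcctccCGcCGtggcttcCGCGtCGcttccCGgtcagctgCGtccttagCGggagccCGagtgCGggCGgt
PLAAT3: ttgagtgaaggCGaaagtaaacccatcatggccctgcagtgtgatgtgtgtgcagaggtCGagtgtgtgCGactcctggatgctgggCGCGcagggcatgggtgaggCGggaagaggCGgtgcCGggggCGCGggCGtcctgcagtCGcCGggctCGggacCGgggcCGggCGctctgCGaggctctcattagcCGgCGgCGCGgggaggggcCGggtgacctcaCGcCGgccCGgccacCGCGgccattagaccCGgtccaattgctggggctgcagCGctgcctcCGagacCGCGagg
The authors' fold enrichment at FRMD8 was 5.93 in K rep KO, 11.04 in K non-rep KO, 4.87 in K-KD, 7.50 in EV and 5.25 in WT. At PLAAT3 it was 9.37 in K rep KO, 11.6 in K non-rep KO, 3.89 in K-KD, 9.52 in EV and 6.38 in WT. The start on which each of these windows is set lay within a peak in each list. Both windows lie inside the span of their gene, 65368026 to 65413525 for FRMD8 and 63574462 to 63616927 for PLAAT3. Neither marks the outer end of its gene.

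The next set is shown because K non-rep KO had a peak there and K rep KO had none, the direction on which the arms were selected. EHBP1L1, of a membrane-trafficking adaptor, lies at chr11:65575803-65576102 on the plus strand, PAX6, a master regulator of eye development, at chr11:31804992-31805291 on the minus strand, FANCF, a Fanconi anaemia repair gene, at chr11:22625774-22626073 on the minus strand, and WT1, a transcription factor of kidney development, at chr11:32430764-32431063 on the minus strand.
EHBP1L1: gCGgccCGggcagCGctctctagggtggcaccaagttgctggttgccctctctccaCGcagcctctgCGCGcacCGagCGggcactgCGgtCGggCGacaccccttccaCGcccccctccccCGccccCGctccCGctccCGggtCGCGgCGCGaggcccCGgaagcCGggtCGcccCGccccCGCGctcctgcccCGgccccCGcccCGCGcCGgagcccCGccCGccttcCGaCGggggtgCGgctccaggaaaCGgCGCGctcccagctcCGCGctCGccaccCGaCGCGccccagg
PAX6: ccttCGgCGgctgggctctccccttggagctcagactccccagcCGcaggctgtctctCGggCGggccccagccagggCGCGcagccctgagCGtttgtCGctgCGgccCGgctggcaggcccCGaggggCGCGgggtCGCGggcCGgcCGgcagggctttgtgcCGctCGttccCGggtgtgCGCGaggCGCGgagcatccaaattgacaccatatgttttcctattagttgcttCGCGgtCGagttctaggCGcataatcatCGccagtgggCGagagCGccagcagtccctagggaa
FANCF: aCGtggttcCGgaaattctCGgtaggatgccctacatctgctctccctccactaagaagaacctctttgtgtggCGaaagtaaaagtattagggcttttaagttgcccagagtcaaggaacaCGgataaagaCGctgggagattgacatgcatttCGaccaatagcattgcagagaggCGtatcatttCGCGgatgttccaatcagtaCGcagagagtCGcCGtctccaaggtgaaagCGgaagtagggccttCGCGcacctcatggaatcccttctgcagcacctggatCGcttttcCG
WT1: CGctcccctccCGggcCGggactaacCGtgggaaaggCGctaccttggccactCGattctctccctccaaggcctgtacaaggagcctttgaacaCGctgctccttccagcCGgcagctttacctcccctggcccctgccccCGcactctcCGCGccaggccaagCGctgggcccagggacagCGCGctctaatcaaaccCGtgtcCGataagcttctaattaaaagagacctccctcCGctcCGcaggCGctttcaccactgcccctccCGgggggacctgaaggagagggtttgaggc
These windows held 45, 32, 18 and 20 CpG in that order. The K non-rep KO peak covered all 300 bases at FANCF and 268 at WT1, but reached only 15 bases into the EHBP1L1 window and 19 into the PAX6 window. Its fold enrichment was 5.16 at EHBP1L1, 5.44 at PAX6, 4.95 at FANCF and 4.45 at WT1. EV also had a peak at PAX6, FANCF and WT1, with fold enrichments of 4.60, 4.52 and 5.99. K-KD had one at WT1 alone, at 5.13, and WT had none at these windows. In K rep KO none of these windows met a peak, which says only that no peak was called there. The reverse was also seen: K rep KO had a peak and K non-rep KO none at promoter windows of BDNF, a neurotrophin, with a fold enrichment of 4.02, of CTSF, a cathepsin, with 3.12, and at another PAX6 window, chr11:31807573-31807872, with 4.46. The PAX6 and WT1 windows printed above lie inside their genes, whose spans reach 31817961 and 32435539 at the upstream end. The PAX6 window at that end, chr11:31817912-31818211, had a peak in EV and WT and in neither knockout.

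Over all 1704 promoter windows of the arms, 83 met a peak in some list (4.87%), against 7.35% of 33068 windows on the other chromosomes. Windows with a peak held a median of 16 CpG (quartiles 9 and 21) and those without 9 (quartiles 3 and 26), so the 2 sets overlapped widely. On the other chromosomes the median was 14 in both, with quartiles of 9 and 21 and of 3 and 29. K rep KO had a peak at 15 of the arm windows (0.880%) and at 2.88% of the others. K non-rep KO had a peak at 38 (2.23%) and 2.16%, K-KD at 26 (1.53%) and 2.88%, EV at 54 (3.17%) and 4.69%, and WT at 12 (0.704%) and 0.656%. Of the windows with a peak in either knockout, 6 had it in K rep KO alone, 29 in K non-rep KO alone and 9 in both. On the other chromosomes these numbers were 610, 371 and 342. This pair chose the arms, so nothing is read from the difference. Windows of the same gene can overlap and share a peak.

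The arms took the smallest share of the K rep KO list. K rep KO held 896 arm peaks, K non-rep KO 1591, K-KD 1595, EV 2771 and WT 835. Arm peaks made up 1.52% of the K rep KO list, with 2.98% for K non-rep KO. These shares are given without an interval and nothing is read from them, since both lists took part in the choice. The share was 2.96% in K-KD (Wilson 95% interval 2.82 to 3.10) and 3.16% in EV (3.04 to 3.27). WT had 2.72% (2.54 to 2.90). The short arm held 224 peaks in K rep KO, 402 in K non-rep KO, 364 in K-KD, 715 in EV and 228 in WT. The long arm held 672, 1189, 1231, 2056 and 607 in the same order. The long arm was denser than the short arm in each list, with 4.98 peaks per Mb on the short and 8.58 on the long arm in K rep KO, and 8.93 and 15.2 in K non-rep KO.

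K rep KO held 0.563 times the arm peaks of K non-rep KO, while on the other chromosomes it held 1.13 times as many. The relative ratio, that is the arm ratio over the ratio on the other chromosomes, was 0.50, with 0.494 on the short arm and 0.501 on the long arm. No other chromosome stood below 0.949. Against WT the relative ratio of K rep KO was 0.547, from an arm ratio of 1.07 and a ratio of 1.96 elsewhere. Chromosome 18, at 0.552, was the nearest of the other chromosomes. K non-rep KO against WT stood at 1.09, on 1591 and 835 peaks, a description as well since K non-rep KO took part in the choice. K-KD against EV stood at 0.938 (exact interval 0.882 to 0.998), with 0.830 (0.729 to 0.943) on the short arm and 0.976 (0.909 to 1.05) on the long arm. EV against WT stood at 1.16 (1.07 to 1.25). In these last 3 comparisons 17, 4 and 20 of the 22 other chromosomes lay lower than the arms, so the arms were within the range of the genome. In all, 3 of these comparisons share the WT list, whose peaks are wider and fewer.

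**Figure D1:**
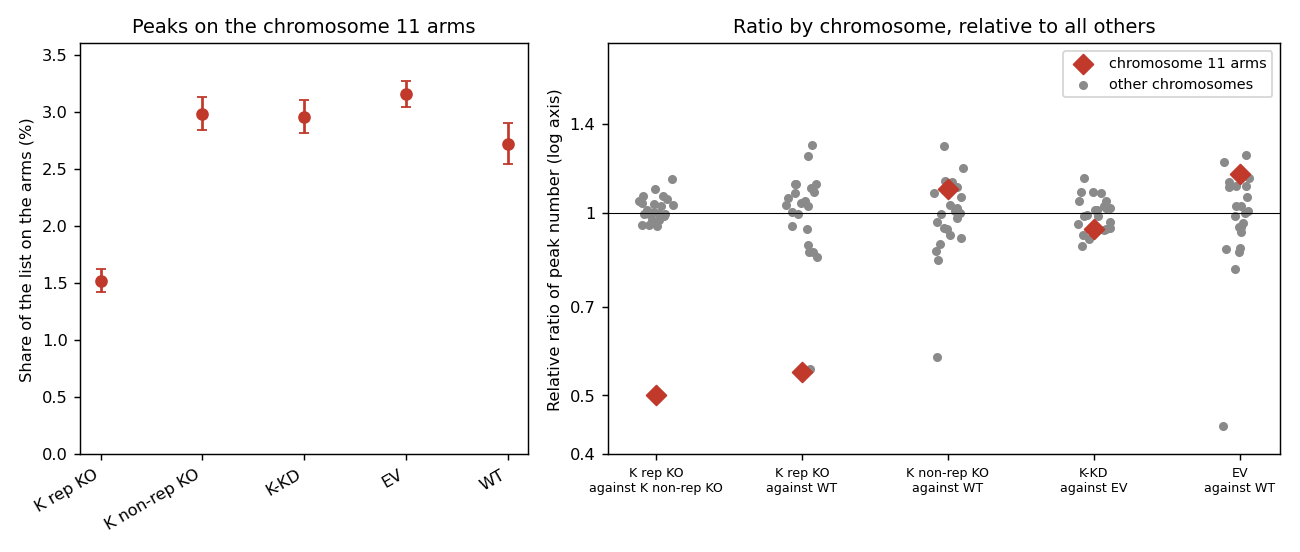
Left, share of each peak list that lies on the chromosome 11 arms, in percent, with Wilson 95% intervals (1 list per condition); right, ratio of peak numbers of each chromosome relative to all others on a log axis, with the arms as red diamonds and the 22 other chromosomes as grey points. The K rep KO share is 1.52% and the other shares run from 2.72% to 3.16%, and the arms stand at 0.50 in K rep KO over K non-rep KO. These 2 lists chose the arms, so the intervals drawn for them support no difference.

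The low number in K rep KO ran along both arms. Each of the 24 arm windows of 5 Mb with at least 50 peaks in the 5 lists together had its lowest share of a list in K rep KO, where 9.44% of 551 windows on the other chromosomes did. All 23 arm windows with at least 20 peaks in the pair lay below the ratio over all peaks in K rep KO over K non-rep KO, beside 53.4% of all windows of the genome, from which nothing is read since this pair chose the arms. Against WT all 21 windows did, beside 43.5% of all windows, and 22 of 24 did with windows of 2 Mb. Nothing is read from this or from the lowest shares above either, since the K rep KO list took part in the choice. In K non-rep KO against WT 8 of 23 did, beside 37.7%, in K-KD against EV 15 of 24, beside 66.6%, and in EV against WT 10 of 24, beside 38.3%, which are close to the genome. Relative to K non-rep KO, K rep KO was lowest at 10 to 15 Mb, with 10 peaks in K rep KO, 30 in K non-rep KO, 33 in K-KD, 67 in EV and 8 in WT. The window from 115 to 120 Mb held 40, 96, 73, 165 and 48 in the same order. The densest, 65 to 70 Mb in 11q13, held 181, 302, 367, 579 and 141, and 60 to 65 Mb held 142, 216, 256, 432 and 122. These 10 Mb took 36.0% of the arm peaks of K rep KO, 32.6% of K non-rep KO, 39.1% of K-KD, 36.5% of EV and 31.5% of WT. The knockouts were nearest to equal at 90 to 95 Mb, with 14 peaks in K rep KO, against 16 in K non-rep KO.

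**Figure D2:**
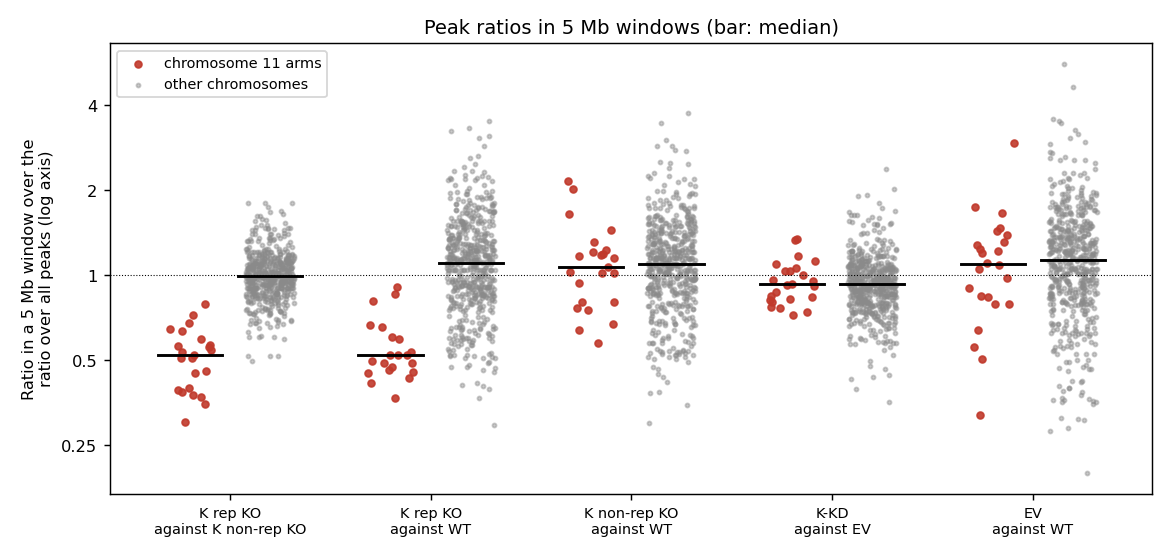
Ratio of peak numbers in 5 Mb windows divided by the ratio over all peaks, on a log axis, for each comparison; red points are windows of the chromosome 11 arms, grey points those of other chromosomes, and bars are medians. The arm median is 0.520 in K rep KO over K non-rep KO, where the other chromosomes have 0.995.

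The strongest arm peaks of EV were mostly found in K rep KO and the others mostly not, as also in the other lists. Taking the EV list as a catalogue, 22.4% of its 2771 arm peaks were overlapped by a K rep KO peak, against 40.1% on the other chromosomes. For K non-rep KO these shares were 31.8% and 35.7%, for K-KD 29.3% and 35.3%, and for WT 20.3% and 24.5%. Among the 257 EV arm peaks with a −log10 q of 10 or more, 81.7% (76.5 to 86.0) were found in K rep KO, against 84.7% elsewhere. Among those between 3 and 5, 11.6% (9.72 to 13.8) were found, against 30.8%, and between 1.3 and 3 9.77% (7.84 to 12.1), against 26.0%. The arm share thus lay at 0.965 times that of the other chromosomes for strong EV peaks and at 0.378 and 0.375 times for weak ones. In K non-rep KO these factors were 0.995, 0.954 and 0.821, in K-KD 0.974, 0.801 and 0.720, and in WT 1.08, 0.723 and 0.567. Between 5 and 10, 27.5% of 829 EV arm peaks were found in K rep KO, against 44.2% elsewhere, a factor of 0.622. K non-rep KO, K-KD and WT had factors of 0.931, 0.924 and 0.970 there. K rep KO had the lowest factor in each class, from which nothing is read since its list took part in the choice. Of the regions found in all 4 other lists, 89.5% (85.6 to 92.4) of 313 on the arms also had a K rep KO peak, against 92.9% elsewhere.

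**Figure D3:**
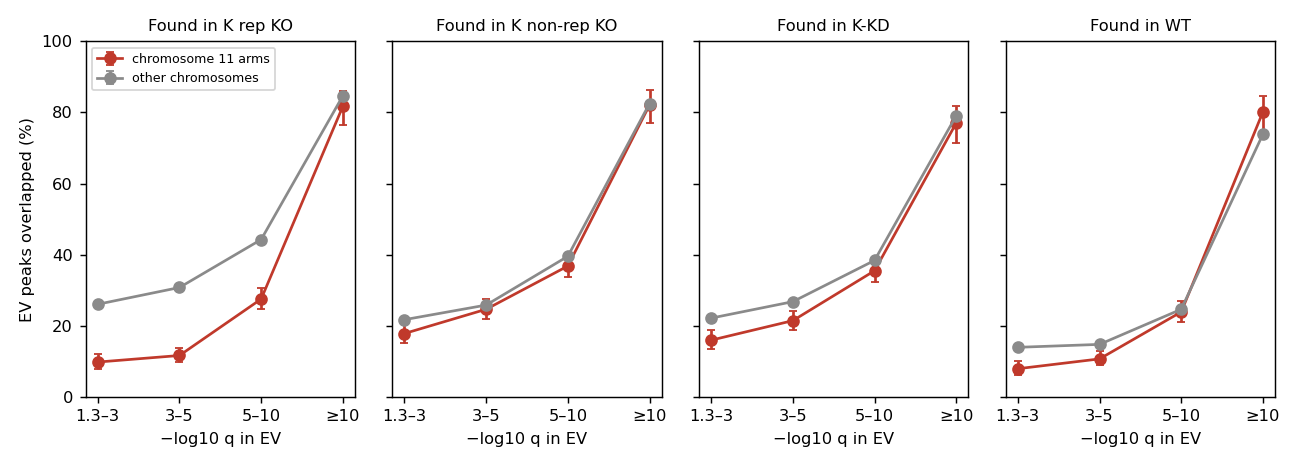
Share of EV peaks that a peak of another list overlaps, in percent, by the −log10 q of the EV peak, for the chromosome 11 arms (red) and the other chromosomes (grey), with Wilson 95% intervals. In K rep KO the arms lie at 9.77% and the other chromosomes at 26.0% for the weakest EV peaks, and at 81.7% and 84.7% for the strongest.

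Between the knockouts, 57.5% of the K rep KO arm peaks and 32.2% of those of K non-rep KO were shared, against 43.4% and 49.5% on the other chromosomes. K non-rep KO arm peaks that K rep KO also had were stronger within their own list, with a median fold enrichment of 5.44 and width of 900 bp, than the 1078 it lacked, with 4.22 and 406 bp. On the other chromosomes the same split gave 4.70 and 4.14 in fold, and 723 and 409 bp in width. Of 4398 distinct arm regions, 280 (6.37%) had a peak in all 5 lists, against 8.04% elsewhere. Regions of K rep KO alone made up 142 (3.23%), against 10.7% elsewhere, while those of K non-rep KO alone made up 526 (11.96%), against 9.10%. K-KD alone had 584 (13.3%), against 9.82%, EV alone 1374 (31.2%), against 23.5%, and WT alone 174 (3.96%), against 3.17%. Regions of a single list took a smaller share of the arms than of the other chromosomes in K rep KO and a larger one in the other 4 lists.

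Within each list, arm peaks were close to those elsewhere in fold enrichment, with the widest gap in WT. The authors' median fold enrichment on the arms and on the other chromosomes was 4.46 and 4.39 for K rep KO. K non-rep KO had 4.45 and 4.44, K-KD 4.20 and 4.20, EV 4.32 and 4.30, and WT 4.37 and 4.08. The median −log10 q was lower on the arms in K rep KO (4.36 and 4.44) and K non-rep KO (3.66 and 3.99). It was also lower in K-KD (3.43 and 3.73) and EV (4.21 and 4.51), and equal in WT (4.51). Median width was 544.5 and 512 bp for K rep KO, 486 and 507 for K non-rep KO, 454 and 506 for K-KD, 508 and 522 for EV, and 663 and 749 for WT. Peaks of 2500 bp or more were rarer on the arms in each list, from 0.503% to 1.00%, against 1.82% to 4.37% elsewhere. More of the arm peaks lay in protein-coding genes or within 2 kb of them. That share was 64.1% in K rep KO, 66.4% in K non-rep KO, 68.6% in K-KD, 70.3% in EV and 61.4% in WT, against 56.9%, 56.8%, 58.0%, 60.9% and 46.2% on the other chromosomes.

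The local background of the peaks was also lower on the arms. It was worked out for each peak from the authors' fold enrichment and p, in reads at the summit, and its lowest value in a list is common to many peaks. On the arms 44.0% (40.8 to 47.2) of the K rep KO peaks stood at that lowest background, against 16.5% on the other chromosomes, a factor of 2.66. K non-rep KO had shares of 35.0% and 25.9%, a factor of 1.35. The factor was 1.45 for K-KD (31.8% and 21.9%), 1.27 for EV (24.4% and 19.2%) and 1.41 for WT (26.5% and 18.8%). In K rep KO no other chromosome reached the share of the arms, the nearest being chromosome 13 at 30.1%, whereas 2 to 5 other chromosomes did in the other lists. The median background of arm peaks was 0.699 times that of the other chromosomes in K rep KO, and 0.865, 0.872, 0.860 and 0.828 times in K non-rep KO, K-KD, EV and WT. Among peaks above the lowest background the factor was 1.00 in K rep KO, and with means it was 0.671 in K rep KO and from 0.649 to 0.771 in the other lists. In regions found in all 5 lists the median factors were 0.572 in K rep KO and 0.705, 0.750, 0.750 and 0.755 in the others. The summit pileup in those same regions had a median of 17 reads on the arms and 21 elsewhere in K rep KO. K non-rep KO had medians of 17 and 17, K-KD 16 and 18, EV 22 and 23, and WT 22.5 and 24. The part of this lower background in the peak number was not tested, and methylation per DNA copy and the number of copies cannot be told apart in these lists.

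**Figure D4:**
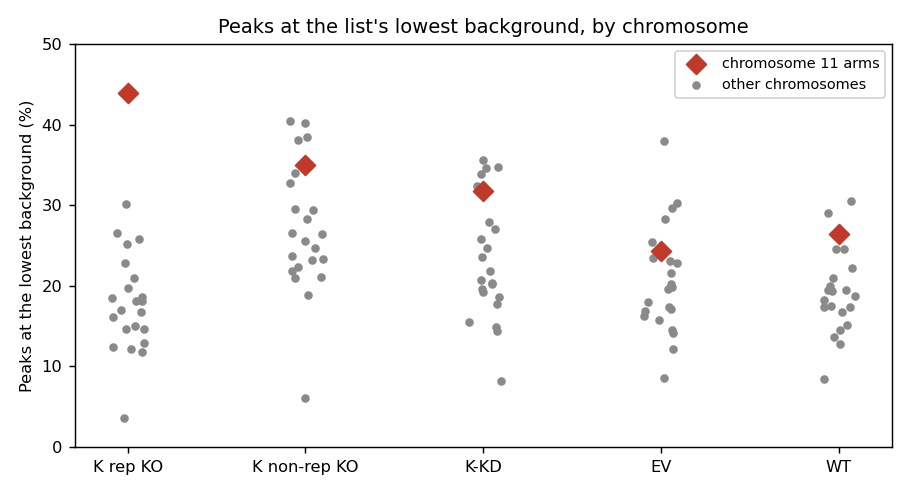
Share of a list's peaks that stand at its lowest local background, in percent, by chromosome, with the chromosome 11 arms as red diamonds and the 22 other chromosomes as grey points (1 list per condition). The arms stand at 44.0% in K rep KO, above every other chromosome of that list, and within the range of the others in K non-rep KO, K-KD, EV and WT.

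Of the 1148 protein-coding genes of the arms, 351 held a peak in K rep KO (30.6%), 501 in K non-rep KO (43.6%), 524 in K-KD (45.6%), 645 in EV (56.2%) and 324 in WT (28.2%). On the other chromosomes the shares were 58.5%, 56.0%, 56.2%, 69.1% and 37.3%. K rep KO held fewer peaks than K non-rep KO in 362 arm genes, more in 83 and as many in 703. Among the 39 arm genes with at least 8 peaks in the pair, 12 were lower by 2-fold or more in (peaks + 1) and 0 were higher, beside 3.51% lower and 8.01% higher over the 2509 genes of the genome that met the same minimum, from which nothing is read for this pair.

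CPT1A, the carrier enzyme that lets fatty acids enter mitochondria, spans 68754620 to 68844277. It held 3 peaks in K rep KO, 11 in K non-rep KO, 13 in K-KD, 20 in EV and 2 in WT. SHANK2, which organises excitatory synapses and spans 70467854 to 71253234, held 6, 17, 13, 47 and 6 in the same order. LRP5, a Wnt co-receptor gene (68298412 to 68449275), held 9, 19, 22, 40 and 8. These genes were picked for fewer peaks in K rep KO than in K non-rep KO, and K-KD and EV also held more. The K rep KO numbers were close to those of WT, although its whole list is 1.92 times as long as that of WT.

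KDM2A, a histone demethylase that binds unmethylated CpG, held 4 peaks in K rep KO, 11 in K non-rep KO, 5 in K-KD, 11 in EV and 2 in WT. SBF2, of a myotubularin-related protein, held 3, 10, 7, 16 and 5 in that order. MAML2, a Notch coactivator, held 4, 10, 7, 8 and 4. Further genes at the low end were DENND5A, a Rab exchange factor, GRIK4, a kainate receptor subunit, NADSYN1, of NAD synthesis, ST14, of the membrane protease matriptase, and PC, pyruvate carboxylase. They held 2 or 3 peaks in K rep KO, against 6 or 7 in K non-rep KO. At the high end AHNAK, of a giant scaffold protein, held 8 peaks in K rep KO, against 5 in K non-rep KO. ZNF143, a transcription factor, held 8 and 8, IPO7, a nuclear import receptor, 7 and 7, and FAM118B, FRMD8 and IGSF9B, of a synaptic adhesion protein, 4 and 4. AHNAK was the 1 gene of these 39 with more peaks in K rep KO.

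**Figure D5:**
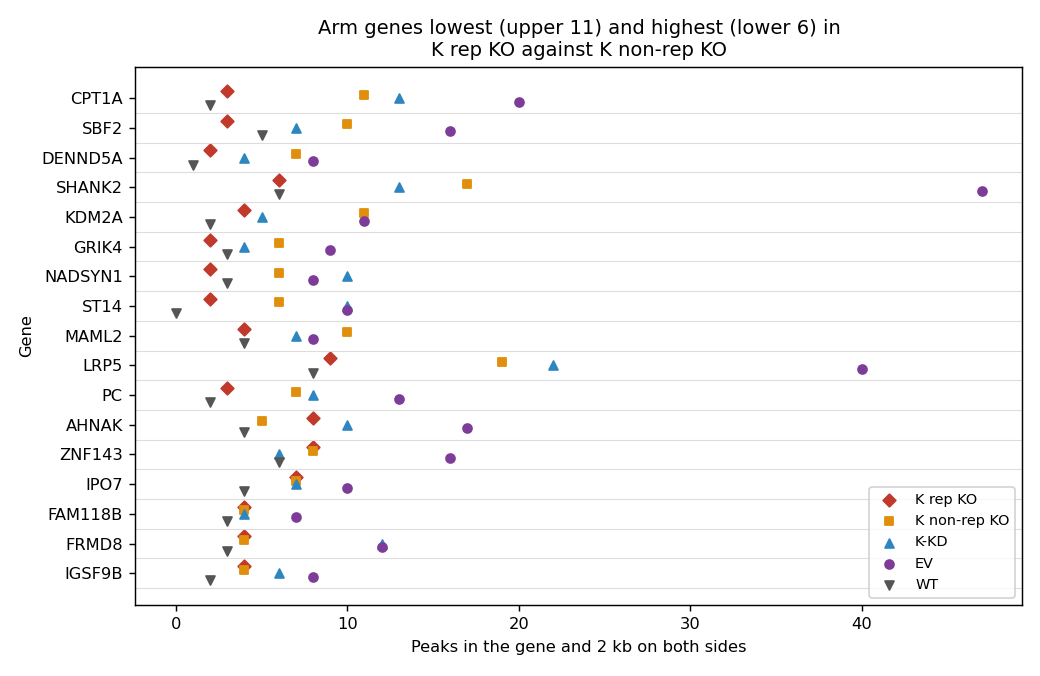
Number of peaks in the gene and 2 kb on both sides for 11 of the 12 arm genes lowest and the 6 highest in K rep KO over K non-rep KO, with 1 symbol per condition. CPT1A has 3 peaks in K rep KO, 11 in K non-rep KO, 13 in K-KD, 20 in EV and 2 in WT, and ZNF143 has 8 in both knockouts.

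Genes with regions in all 5 lists were partly those at the high end. Such regions lay in 141 arm genes. ZNF143 held 5 of them, IPO7 4, and AHNAK, AMBRA1, of autophagy, RTN3, of the endoplasmic reticulum, and TPCN2, a lysosomal channel, 3 each. CELF1, an RNA-binding protein gene, FAM118B, FRMD8 and HTR3B, a serotonin receptor subunit, held 2 each.

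Set against WT, K rep KO held no arm gene past 2-fold in either direction among the 16 with enough peaks, beside 0.0600% lower and 54.5% higher over the genome. MRPL48, of the mitochondrial ribosome, held 5 peaks in K rep KO, against 8 in WT, and AMBRA1 6 and 8. CELF1 and SBF2 held 3 and 5, and CSTPP1 and PIK3C2A, a lipid kinase, 4 and 5. At the other end AHNAK held 8 and 4, IPO7 7 and 4, ANO1, a chloride channel, and PLAAT3 5 and 3, ZNF143 8 and 6, and LRP5 9 and 8. The ratio of the whole lists was 1.92.

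K non-rep KO against WT had 12 of 36 arm genes higher by 2-fold or more (33.3%) and 0 lower, beside 47.5% and 0.326% over the genome. CPT1A and KDM2A held 11 peaks in K non-rep KO, against 2 in WT (ratio 5.50, 1.20 to 51.1), and SHANK2 17 and 6 (2.83, 1.07 to 8.78). DENND5A held 7 and 1, and PC 7 and 2. The ratio over all peaks was 1.74, and the interval of each gene named for this pair included it. AMBRA1 and MRPL48 held 7 and 8, CELF1 5 and 5, and LRRC4C, of a netrin ligand, TAF6L and TMEM223 4 and 4. TAF6L and TMEM223 overlap, so a peak can count for both.

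K-KD against EV had 36 of 119 arm genes lower by 2-fold or more (30.3%) and 1 higher, beside 29.4% and 0.396% over the genome, so the arms resembled the rest. DDB2, a sensor of UV damage, held 1 peak in K-KD, against 8 in EV (ratio 0.125, 0.00282 to 0.932). FCHSD2, of endocytosis, held 3 and 14 (0.214, 0.0395 to 0.768), and DSCAML1, a neuronal adhesion gene, 3 and 13 (0.231, 0.0422 to 0.840). AGBL2, LDLRAD3 and SIK3, a salt-inducible kinase, held 1 and 7. At the high end FAM168A held 7 and 3, PHF21A, of a histone demethylase complex, 8 and 4, SLC3A2, an amino acid transporter chain, 7 and 4, DPP3, a peptidase, 6 and 4, NADSYN1 10 and 8 and GPR137 5 and 4. The ratio over all peaks was 0.614, and the interval of each gene named for this pair included it. Of the 119 genes 99 held fewer peaks in K-KD and 10 more.

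EV against WT had 68 of 83 arm genes higher by 2-fold or more (81.9%) and 0 lower, beside 76.9% and 0.0740%. FLRT1, an adhesion gene nested in MACROD1, held 17 peaks in EV and 0 in WT, DSCAML1 and PPFIA1, a liprin, 13 and 0, DGKZ, a diacylglycerol kinase, and ST14 10 and 0, and EHD1, of endosomal recycling, 9 and 0. PPFIA1 held 0 peaks in K rep KO, against 7 in K non-rep KO. At the low end MRPL48 held 8 and 8, DPP3 4 and 4, TAF6L and TMEM223 5 and 4, and CBL, a ubiquitin ligase, and UBASH3B, a phosphatase, 6 and 4.

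Gene groups of the arms are set beside all 1148 arm genes, of which 362 held fewer peaks in K rep KO than in K non-rep KO and 83 more, with 609 peaks against 1137. Their median log2 ratio of K rep KO over K non-rep KO was 0.0, with 703 genes equal and many empty, and that of the 39 arm genes with at least 8 peaks was -0.58. The lists were drawn up with earlier results of these data known, and this pair chose the arms, so its counts are a description only. Of 18 growth and cell cycle genes of 11q13, 10 held fewer peaks in K rep KO, 1 held more and 7 as many, with 14 peaks in all, against 38 in K non-rep KO, and the list's median log2 ratio was -0.74. CCND1, the cyclin of the band, held 0 peaks in K rep KO, against 3 in K non-rep KO, PAK1, a kinase, 0 and 3, ANO1 5 and 9, and CTTN, of the actin cortex, 2 and 4. RSF1 and CLNS1A held 2 in both. Among 23 DNA repair and chromatin genes 12 held fewer, 3 more and 8 as many, with 23 peaks against 48 and a median of -0.58. ZBTB16 held 1 and 5, RAD9A, of the checkpoint clamp, 0 and 3, PRDM11 1 and 4, and DDB2 3 and 2. In 20 lipid metabolism genes, 10 held fewer, 1 more and 9 as many (19 peaks against 40, median -0.11). FADS2, the fatty acid desaturase, was the gene with more, at 4 and 2, and ACAT1, of ketone metabolism, held 0 and 3.

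Of 27 neuronal adhesion and synapse genes 9 held fewer peaks in K rep KO, 3 more and 15 as many, with 28 peaks against 60 in K non-rep KO and a median of 0.0. TENM4, a teneurin, held 1 and 6, DSCAML1 1 and 5, KIRREL3 2 and 5 and DLG2, a synaptic scaffold, 1 and 4, while HTR3B held 3 and 3. Of 18 development and transcription factor genes of the short arm 7 held fewer, 2 more and 9 as many, with 18 peaks against 28. PAX6 and WT1 each held 2 in K rep KO, against 4 in K non-rep KO, ALX4, a homeobox gene, 3 and 5, and SPI1, a blood cell regulator, 1 and 4. TCP11L1 held 2 and 0. Members of each of these lists lie close together in places, and some share peaks.

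In K-KD against EV 465 of the 1148 arm genes held fewer peaks in K-KD and 108 more, with 1186 peaks against 2101. The median log2 ratio was 0.0 over all of them, with 575 equal, and -0.58 over the 119 with at least 8 peaks. The short arm list had 13 genes with fewer peaks in K-KD, 2 with more and 3 with as many, with 42 peaks against 69 and a median of -1.0. PAX6 held 5 peaks in K-KD, against 8 in EV, and WT1 7 and 7. The 11q13 list had 13 with fewer, 1 with more and 4 with as many, with 43 peaks against 85 and a median of -0.58. The synapse list had 11 with fewer, 8 with more and 8 with as many.

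The highest fold enrichments on the arms recurred in the same regions. All of the 5 highest peaks of each list lay in regions with a peak in all 5 lists. A peak within DYNC2H1, of ciliary transport, at 103459036 to 103459953 was the highest of K rep KO at 24.5, and the same region was the highest of K-KD at 20.4 and of EV at 25.8. In K non-rep KO it stood at 18.7 and the highest was a peak within EXT2, of heparan sulphate synthesis, at 44214143 to 44216153, with 27.0. A region 30804 bp from LUZP2 stood at 18.4 in K rep KO, at 26.0 in K non-rep KO and at 24.6 in EV. A peak within MMP20, the enamel protease, was among the 5 highest of K rep KO at 19.4, EV at 23.5 and WT at 16.6. In WT the highest peak lay within ABTB2, at 34272461 to 34274089, with 19.9.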

How the data were processed

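MeDIP-seq of HEK293T cells gave 10 samples, 1 immunoprecipitated and 1 input library in each of 5 conditions. Bowtie2, MACS2 and deepTools were used with GRCh38, per the submitters' processing notes, and no setting, version or pooling is stated. For every condition the authors deposited a narrowPeak list with fold enrichment (a ratio), −log10 p, −log10 q and a score of 10 times −log10 q. The K-KD list stands for the KD sample. In both knockout lists the peak names carry prefixes unlike the list's name, on which the assignment rests. A further list (1) matched no sample label and was not used. Read counts were not used here, so depth is unknown.

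Peaks outside chromosomes 1 to 22 and X, from 3.56% to 5.83% of a list, were dropped. Pileup and background were solved from fold, as (pileup + 1)/(background + 1), and p, as a Poisson tail (tolerance 0.001), for at least 99.9% of peaks; backgrounds within 2% of a list's lowest common value, 1.02 to 1.43 reads, counted as lowest. Peaks overlapped by 1 bp or more. Genes were the 19974 protein-coding genes of RefSeq, GRCh38.p14. Named genes had the lowest and highest log2((peaks + 1)/(peaks + 1)) among arm genes with at least 8 peaks in a pair, 12 and 6 between the knockouts and 6 and 6 otherwise, or the most regions in all 5 lists, the strongest peaks, or a place in 1 of 11 lists; 1 of them is not reported here. Intervals were Clopper-Pearson (ratios) and Wilson (shares). Python 3.11.15, pandas 2.3.3, NumPy 2.4.6 and SciPy 1.17.1 were used, and scripts were tested on simulated data. The members, lists and comparisons were chosen with earlier results of these data known. Alternatives used stricter thresholds and other overlaps, windows, gene minimums and backgrounds.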

Additional observations from a re-analysis of the deposited data

How the results depend on the processing

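No paired analysis was possible because each condition has 1 list. No relative ratio changed side of 1 under the alternatives tried, and 52 alternative values lay within the interval, or 1.5 times, of the reported one while 63 moved beyond it. By covered length the relative ratio was 0.572 in K rep KO over K non-rep KO, 0.656 in K rep KO against WT and 0.873 in K-KD against EV. At a −log10 q of at least 5 the ratio was 0.849 in K-KD against EV, and with lists cut to equal length 1.02 in EV against WT.

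The arm share of a list, an alternative set chosen after seeing the data, was 2.68% in K non-rep KO, 2.49% in K-KD, 2.85% in EV and 2.34% in WT by covered length. At a −log10 q of at least 5 the share was 2.80% (K non-rep KO), 2.44% (K-KD) and 2.87% (EV), and 1.64% (K rep KO), 3.15% (K non-rep KO) and 2.97% (WT) with fold enrichment of 4 or more. K rep KO stayed the lowest of the 5 lists under each of these, from which nothing is read since its list took part in the choice.

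With an overlap of 50% of both peaks, the K rep KO list shared 42.0% and the K non-rep KO list 23.6% of arm peaks with the other knockout. K rep KO and WT shared 38.3% and 41.1%, K non-rep KO and WT 22.7% and 43.2%, K-KD and EV 33.9% and 19.5%, and EV and WT 14.8% and 49.2%. With −log10 q of 5 or more in both lists these shares were 61.0% and 43.9%, 61.0% and 60.7%, 43.2% and 60.4%, 55.0% and 21.1%, and 25.3% and 74.5%.

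Windows of 2 Mb lay below the ratio over all peaks in 37 of 37 for K rep KO over K non-rep KO, 22 of 24 for K rep KO against WT, 15 of 37 for K non-rep KO against WT, 26 of 45 for K-KD against EV and 17 of 44 for EV against WT. With −log10 q of 5 or more, 14 of 14 did in K rep KO over K non-rep KO and 12 of 12 in K rep KO against WT. The counts were 6 of 14 for K non-rep KO against WT, 14 of 20 for K-KD against EV and 8 of 21 for EV against WT. Nothing is read from the K rep KO counts, since that list took part in the choice. Genome shares are not given for these alternatives. With a minimum of 5 peaks per gene in place of 8, more genes entered, and those past 2-fold numbered 37 in K rep KO over K non-rep KO, 5 in K rep KO against WT, 40 in K non-rep KO against WT, 78 in K-KD against EV and 143 in EV against WT. No share over the genome at this minimum stands beside these counts, so nothing is read from them.

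Means gave arm backgrounds of 0.671 times those elsewhere in K rep KO, 0.687 in K non-rep KO, 0.657 in K-KD, 0.771 in EV and 0.649 in WT, so K rep KO was not the lowest by this measure. Mean pileups stood at 0.883 in K rep KO, the highest of the 5 although its median of 0.833 was the lowest, 0.834 in K non-rep KO, 0.777 in K-KD, 0.852 in EV and 0.805 in WT. Among peaks above the lowest background the median background stood at 1.00 in K rep KO, 0.761 in K non-rep KO, 0.784 in K-KD, 0.805 in WT, and the pileup at 1.00, 0.909, 0.917 and 0.938. The cause was not tested. Medians of whole-number pileups take few values. Without 60 to 70 Mb, chosen after seeing the data, the relative ratio of K rep KO was 0.474 against K non-rep KO and 0.51 against WT.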

Other observations

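Over all 1148 arm genes 753 held a peak in some list, and several gene families held few. Of 135 olfactory receptor genes, which lie in tandem clusters, 6 held a peak in some list, with 3 peaks in K rep KO, 3 in K non-rep KO, 1 in K-KD, 4 in EV and 6 in WT. Of the 9 matrix metalloproteinase genes of 11q22, 2 held a peak, and of 15 MS4A genes, which encode membrane proteins such as the B cell antigen CD20, 4 did. Of 5 keratin-associated protein genes 1 held a peak. All 8 SLC22 organic anion transporter genes found on the arms held a peak in some list, with 2 peaks in K rep KO, 3 in K non-rep KO, 9 in K-KD, 11 in EV and 3 in WT. SLC22A11, a urate transporter gene, held 3 in K-KD, against 6 in EV.

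Among 14 housekeeping genes on the arms, 9 held a peak, with 5 peaks in K rep KO, against 11 in K non-rep KO, close to the share and the ratio over all arm genes. RPS3, of the small ribosomal subunit, held 2 in K rep KO, against 4 in K non-rep KO, EEF1G, of translation elongation, 1 and 2, and TUT1 2 and 2. ELP4, of the Elongator complex, which overlaps regulatory sequence of PAX6, held 6 peaks in EV and 1 in each other list.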
